A study of Schizosaccharomyces pombe with 6 samples.

Results

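The 44 proteasome genes of fission yeast (*Schizosaccharomyces pombe*) were followed in an RNA-seq comparison of WT and *htb1-K119R* cells. They are the genes whose description in the deposited table holds the word proteasome, and no gene had to be left out for a *mug* (meiotically upregulated) symbol. They make up 44 of the 5184 genes in the table. By description, 14 encode the 20S core particle (7 alpha and 7 beta subunits), 20 encode the 19S regulatory particle (6 ATPases and 14 non-ATPase subunits), and 10 encode assembly factors, regulators, and a tethering factor. The last group also holds *rpn15*, a lid subunit whose description lacks the term 19S.

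The study replaced Lys119 of histone H2B, the residue that carries ubiquitin, by Arg. There were 3 WT and 3 *htb1-K119R* libraries, made from oligo(dT)-enriched mRNA of whole cells. The mutant strain of the study is h- ura4-D18 htb1-K119R::kanMX6, and the WT strain of its other assays is TK8 (h+ ade6-M216 leu1-32 ura4-D18). Whether TK8 also gave the WT libraries is not stated in the sources used here, and other differences between the strains cannot be told apart from the *htb1* allele. The *ura4* gene had 0 counts in all 6 libraries, and the mating-type gene *mat1-Mc* had 183 to 354 counts in each, WT included. The methods describe the replicates as independent biological repeats.

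The proteasome is the main protease for ubiquitinated proteins in the cytoplasm and the nucleus. Its core particle is a barrel of outer alpha rings and inner beta rings, and 3 of the beta subunits cut peptide bonds. The regulatory particle sits on the barrel, binds ubiquitin chains, removes the ubiquitin, and unfolds the substrate with a ring of ATPases. The subunits are made from separate genes and joined in fixed proportions with the help of dedicated chaperones.

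All 44 genes passed the low-count filter and were among the 4969 genes tested. Library totals were 15987167 to 20701391 counts, of which the proteasome genes took 0.327% to 0.506%. CPM values below are counts scaled to library size after TMM, a correction for library composition. At an adjusted p below 0.05 (quasi-likelihood test of edgeR, adjusted by Benjamini-Hochberg over all genes tested), 11 proteasome genes were higher and 3 were lower in *htb1-K119R*, and 30 did not pass. Over all genes tested, 18.6% were higher and 19.3% were lower. With the further condition of more than 2-fold change, 1 proteasome gene was called higher and 0 were called lower, against 4.71% and 3.64% of all genes. The count called lower was also 0 at an unadjusted p in edgeR and at an adjusted p in DESeq2. Every *htb1-K119R* library lay above every WT library for 11 proteasome genes and below for 4, against 25.0% and 23.9% of all genes. For a single gene, complete separation of 3 against 3 libraries has a two-sided exact permutation p of 0.1, the smallest this design allows. The median log2 fold change (*htb1-K119R* over WT) was 0.10 over the 44 genes and −0.01 over all genes tested, and 38 of the 44 genes lay within 0.5 of no change.

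**Figure D1:**
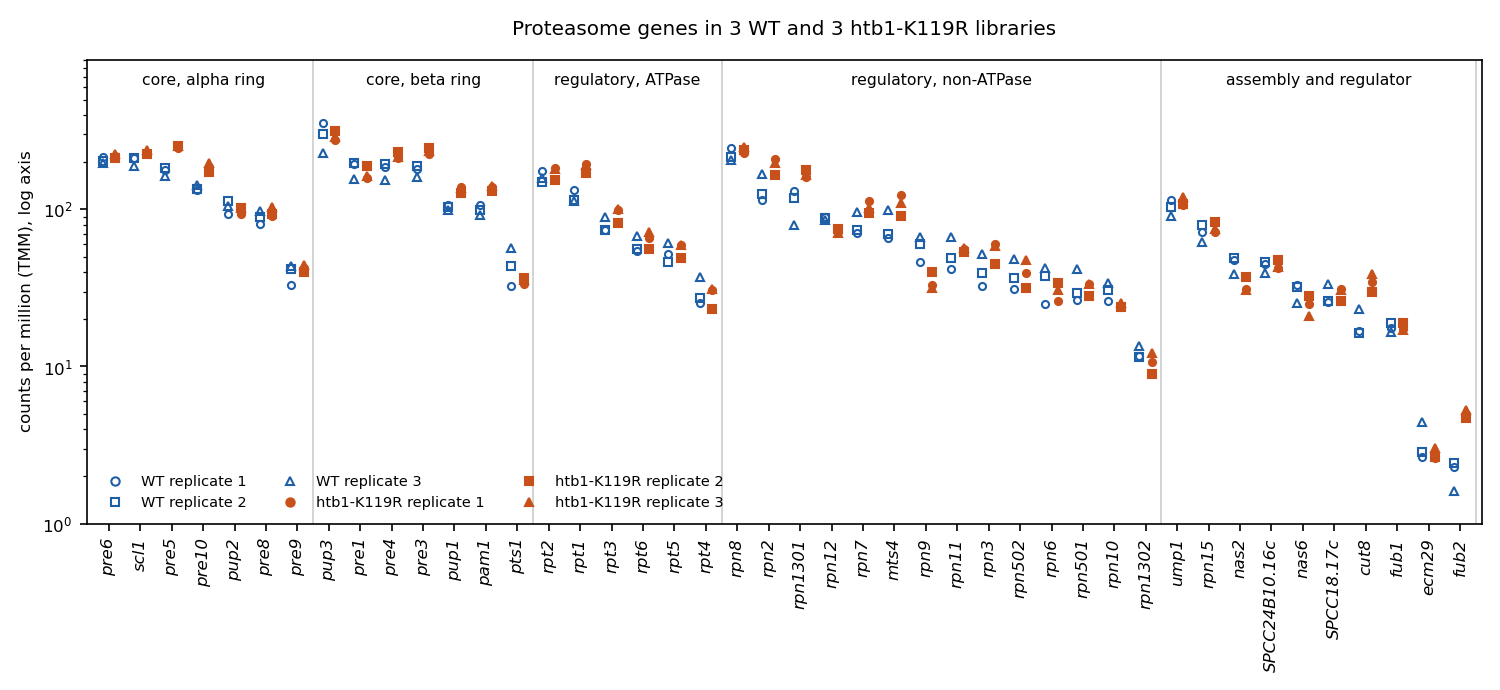
Each of the 44 proteasome genes (x axis, by class and by falling WT mean) with its CPM in each library (log axis). Open blue symbols are the 3 WT libraries and filled orange symbols the 3 *htb1-K119R* libraries; in 29 genes the genotypes overlap, and the WT triangle (replicate 3) is often the highest open symbol among regulatory genes.

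WT replicate 3 stood apart from the other WT libraries, and in a different direction for each particle. Among the 20 regulatory genes it was the highest WT library in 15, with a median of 0.33 (log2) above the other WT libraries. Among the 14 core genes it was the lowest in 9, with a median of −0.12. Similarly, *htb1-K119R* replicate 2 was the lowest mutant library in 14 of the 20 regulatory genes. These shifts moved with transcript length. Of the 44 genes, the 28 with transcripts of at least 1200 bases in the RefSeq annotation (ASM294v3) had a median of 0.33 in WT replicate 3 relative to the other WT libraries, and the 16 shorter ones had −0.19. Over all genes tested with a length, the same medians were 0.11 and −0.24. The genotype difference also moved with length over all genes tested, with a median log2 fold change of 0.07 for the longer and −0.24 for the shorter transcripts. Median transcript length was 1155 bases for core genes and 1486 for regulatory genes, against 1719 for all genes. Therefore, the counts of each class are also given without WT replicate 3 and with an offset for transcript length, which was added after the data were seen. In the annotation, 40 of the 44 genes overlap a gene on the opposite strand, 16 of them a protein-coding one (among them *pre3*, *pup1*, and *rpn12*), and without a stated strand setting the reads of such partners cannot be told apart. A gene on the same strand overlaps 4 of the 44 (*rpn11*, *rpn12*, *fub1*, and *ecm29*).

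Transcript levels per length (deposited FPKM) were higher for the core than for the regulatory particle. In WT, core genes ranged from 28.5 FPKM for *pre9* to 218 FPKM for *pup3*, with a median of 106 FPKM. Regulatory genes ranged from 8.85 FPKM for *rpn1302* to 153 FPKM for *rpn8*, with a median of 35.8 FPKM. Thus, levels of subunits that occur in equal numbers in the core differed 7.64-fold between genes. In *htb1-K119R* the extremes of the regulatory particle were the same genes, *rpn1302* and *rpn8*, and *pup3* was again the highest core gene. The lowest core gene in *htb1-K119R* was *pts1* (30.8 FPKM), followed by *pre9* (33.7 FPKM). In WT these genes were at 36.1 ± 16.8 and 28.5 ± 8.95 FPKM (mean ± SD, n = 3), within each other's spread. The assembly genes spanned from *ecm29* at 0.611 FPKM to *rpn15* at 102 FPKM in WT.

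Among the 14 core genes, 5 rose in *htb1-K119R*, by 31% to 43%, and 0 fell. It was also 0 at an unadjusted p below 0.05 in edgeR and at an adjusted p below 0.05 in DESeq2. Of all genes tested, 18.6% were higher and 19.3% were lower. The members that rose were *pre5* and *pre10* of the alpha ring and *pam1*, *pre3*, and *pup1* of the beta ring. The core median was a log2 fold change of 0.14. Every mutant library lay above every WT library in 7 core genes, which are these 5 with *scl1* (alpha 1) and *pre4* (beta 7). Such separation was seen in 25.0% of all genes tested.

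The *pre5* gene encodes the alpha 6 subunit (SPAC6G10.04c, chromosome I from 3220849 to 3222154, minus strand). It was at 179, 182, and 163 CPM in WT replicates 1, 2, and 3. It was at 245, 252, and 254 CPM in *htb1-K119R* replicates 1, 2, and 3. The mutant libraries all lay above WT, with a narrow spread in either genotype. The log2 fold change was 0.52 (adjusted p = 0.00288 in edgeR, SE 0.101). The neighbouring alpha 7 subunit is encoded by *pre10* (SPCC1795.04c, chromosome III from 990692 to 992059, plus strand). Its WT values were 133, 135, and 144 CPM, and its mutant values were 187, 172, and 198 CPM. The groups did not overlap, and the log2 fold change was 0.44 (adjusted p = 0.00744 in edgeR, SE 0.102). It passed in 5 of the 6 fits that left out a library. The *rrk1* gene lies on the opposite strand of the *pre10* locus.

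In the beta ring, *pam1* encodes beta 6, a subunit without a known active site (SPAC22F8.06, chromosome I from 4795356 to 4796348, plus strand). It rose from 106, 99.7, and 92.7 CPM in WT to 139, 132, and 142 CPM in the mutant. The lowest mutant library was well above the highest WT library, and the log2 fold change was 0.47 (adjusted p = 0.00432 in edgeR, SE 0.0982).

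Of the 3 catalytic subunits, 2 passed the test as higher. The *pre3* gene encodes beta 1, which carries the caspase-like activity (SPBC4C3.10c, chromosome II from 3117646 to 3118883, plus strand). Its values were 181, 188, and 160 CPM in WT, against 226, 246, and 237 CPM in the mutant. All mutant libraries were above WT, and the log2 fold change was 0.42 (adjusted p = 0.0114 in edgeR, SE 0.107). The *pup1* gene encodes beta 2, the trypsin-like subunit (SPAC23D3.07, chromosome I from 4350968 to 4352369, plus strand). It was at 106, 103, and 98.7 CPM in WT, against 139, 127, and 136 CPM in the mutant. Again the genotypes were separate, with a log2 fold change of 0.39 (adjusted p = 0.00958 in edgeR, SE 0.0948). Of the 6 fits that left out a library, *pre3* and *pup1* each passed in 4. The *pts1* gene encodes beta 5, the chymotrypsin-like subunit (SPAC4A8.13c, chromosome I from 2574746 to 2575949, minus strand). It was at 32.7, 43.7, and 56.7 CPM in WT, the widest relative spread of the catalytic subunits, and at 33.5, 36.6, and 35.3 CPM in *htb1-K119R*. The genotypes overlapped through WT replicate 1, and the log2 fold change of −0.35 (SE 0.1703) did not pass (adjusted p = 0.132 in edgeR). Without WT replicate 1 it was −0.52 and passed (adjusted p = 0.0132 in edgeR), and without WT replicate 3 it was −0.13.

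The remaining 8 core genes did not pass. Their log2 fold changes lay between −0.11 for *pre1* (beta 4) and 0.31 for *pre4* (adjusted p = 0.0619 in edgeR). The most abundant core transcript, *pup3* (beta 3), had 357, 302, and 229 CPM in WT, against 277, 317, and 291 CPM in the mutant, so that its means of 296 and 295 CPM were nearly equal while the WT libraries were far apart. Without WT replicate 3, the same 5 core genes were higher (35.7%, against 26.4% of all genes in that fit). Without *htb1-K119R* replicate 3, only *pam1* and *pre5* were higher (14.3%, against 11.8% of all genes in that fit), and the core median was 0.11. With the offset for transcript length, 8 of the 14 core genes were higher, against 19.3% of all genes in that fit, and the core median was 0.33. The genes added were *scl1*, *pre4*, and *pre6* (alpha 4), and *pts1* was then the only core gene with a negative value (−0.21).

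**Figure D2:**
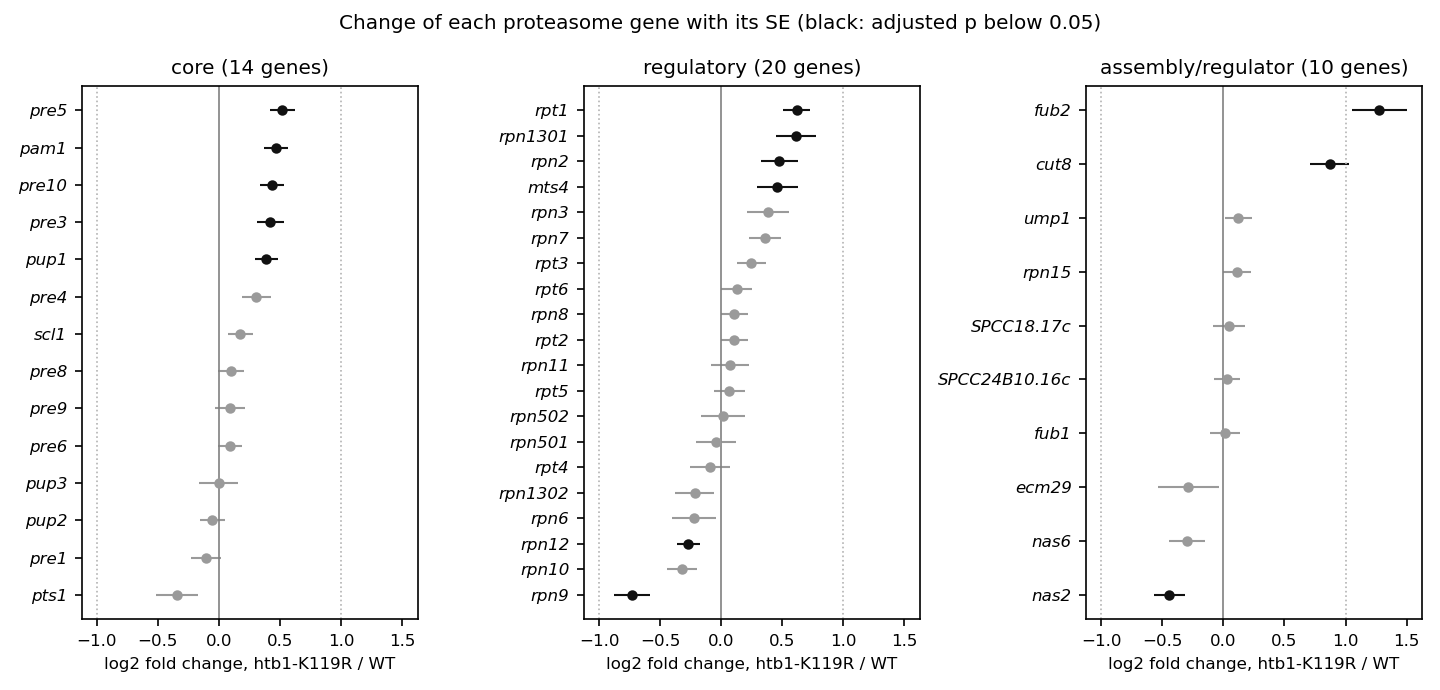
Log2 fold change of each proteasome gene (*htb1-K119R* over WT, x axis) with its SE, in 3 classes. Black marks the 14 genes with an adjusted p below 0.05, dotted lines mark 2-fold, and only *fub2* (1.28) lies beyond one of them.

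In the regulatory particle, 4 of 20 genes rose and 2 fell in *htb1-K119R*. The ATPase *rpt1* and the scaffold and receptor genes *rpn1301*, *rpn2*, and *mts4* were higher, whereas the lid genes *rpn9* and *rpn12* were lower. The median log2 fold change was 0.09, and 15 of the 20 genes overlapped between genotypes, against 2542 of all 4969 genes tested. Without WT replicate 3, the library in which these genes stood highest among WT, 8 were higher and 2 were lower, and the median was 0.20. In that fit, the shares over all genes also grew, to 26.4% higher and 27.7% lower. With the offset for transcript length, 3 were higher and 1 was lower, against 19.3% and 19.2% of all genes, and the median was 0.12.

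Of the 6 ATPases, which form the ring that unfolds substrates, *rpt1* was the only one to pass (SPBC16C6.07c, chromosome II from 4341623 to 4343380, minus strand). It was at 134, 115, and 113 CPM in WT, against 196, 169.7, and 191 CPM in the mutant. The genotypes were fully apart, and the log2 fold change was 0.62 (adjusted p = 0.00172 in edgeR, SE 0.111). With *rpn1301*, this was the largest increase in either particle. The 5 other ATPases, *rpt2* to *rpt6*, had log2 fold changes from −0.09 to 0.25, and each overlapped between genotypes.

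Ubiquitin chains are held by Rpn10 and Rpn13, the latter bound to the scaffold Rpn2, and by the second scaffold Rpn1, which is *mts4* in fission yeast. There are 2 genes for Rpn13, *rpn1301* and *rpn1302*, whose proteins share 25.8% of residues. The *rpn1301* gene (SPBC342.04, chromosome II from 4208263 to 4209901, plus strand) was at 132, 118, and 79.4 CPM in WT, against 159.8, 178, and 165 CPM in the mutant. WT replicate 3 was far below the others, and the mutant libraries were above all of them. The log2 fold change was 0.62 (adjusted p = 0.0141 in edgeR, SE 0.164) and fell to 0.43 without WT replicate 3 (adjusted p = 0.000626 in edgeR). It passed in 5 of the 6 fits that left out a library. The second copy, *rpn1302*, was much less abundant, with 12.3 ± 1.15 CPM in WT, against 10.6 ± 1.62 CPM in the mutant, and did not pass (log2 fold change −0.22, adjusted p = 0.296 in edgeR, SE 0.157).

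The scaffold genes are long and followed WT replicate 3. The *rpn2* gene (SPBC17D11.07c, chromosome II from 3319633 to 3322912, minus strand) had 115, 126, and 169 CPM in WT, against 209.6, 165, and 196 CPM in the mutant. WT replicate 3 reached into the mutant range. On the log2 scale, *rpn2* rose by 0.48 (adjusted p = 0.0316 in edgeR, SE 0.153). The *mts4* gene (SPBP19A11.03c, chromosome II from 2851121 to 2854102, minus strand) had 66.2, 69.6, and 99.1 CPM in WT, against 123, 90.2, and 111 CPM in the mutant. Here, too, the genotypes overlapped through WT replicate 3 and mutant replicate 2. The log2 fold change of 0.46 (SE 0.166) was at the edge of the test (adjusted p = 0.0499 in edgeR). With the offset for transcript length, neither gene passed, at 0.25 for *rpn2* (adjusted p = 0.0775) and 0.27 for *mts4* (adjusted p = 0.0857 in edgeR), and each lost the call in 4 of the 6 fits that left out a library. The *rpn10* receptor gene was lower in every mutant library (26.2, 30.5, and 34.0 CPM in WT, 23.8, 23.9, and 25.2 CPM in the mutant) but did not pass (log2 fold change −0.32, adjusted p = 0.0607 in edgeR, SE 0.122).

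The lid holds the deubiquitinase Rpn11 and structural subunits. The *rpn9* gene encodes one of the latter (SPAC607.05, chromosome I from 2043808 to 2045159, plus strand). It had 46.4, 59.9, and 66.6 CPM in WT, against 33.1, 39.8, and 31.5 CPM in the mutant. Every mutant library was below WT, although the WT libraries were spread. With a log2 fold change of −0.73 (adjusted p = 0.00338 in edgeR, SE 0.147), *rpn9* had the largest decrease among the 44 genes. A protein-coding gene, SPAC607.06c, overlaps *rpn9* on the opposite strand. The *rpn12* gene (SPBC16G5.01, chromosome II from 4214977 to 4216117, plus strand) encodes the subunit that joins the lid last in budding yeast. It had 89.3, 87.6, and 85.1 CPM in WT, against 71.6, 74.5, and 71.1 CPM in the mutant. The libraries of each genotype were close together, and the groups were apart. The log2 fold change of −0.27 (SE 0.0911) passed narrowly (adjusted p = 0.0391 in edgeR) and failed in 5 of the 6 fits that left out a library, as well as with the offset for transcript length (−0.09, adjusted p = 0.401 in edgeR). The *rpn11* gene itself had 52.6 ± 13.0 CPM in WT, against 55.6 ± 2.08 CPM in the mutant (log2 fold change 0.07, adjusted p = 0.732 in edgeR).

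The lid subunit Rpn5 is encoded by *rpn501* (SPAC1420.03, chromosome I from 1266269 to 1267780, plus strand) and *rpn502* (SPAPB8E5.02c, chromosome I from 4909367 to 4910875, minus strand). Their coding sequences of 1332 bases differ at 2 positions and their proteins of 443 residues at none. The windows around both positions are shown because they are the only coding places where a read can tell the genes apart. They are RefSeq sequences of ASM294v3, read 5′ to 3′ in the direction of each gene, with the differing base in capitals.
rpn501, coding base 978, chrI:1267278-1267308, plus strand: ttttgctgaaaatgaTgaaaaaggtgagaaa
rpn502, coding base 978, chrI:4909836-4909866, minus strand: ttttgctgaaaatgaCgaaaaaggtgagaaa
rpn501, coding base 1131, chrI:1267431-1267461, plus strand: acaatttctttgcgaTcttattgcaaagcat
rpn502, coding base 1131, chrI:4909683-4909713, minus strand: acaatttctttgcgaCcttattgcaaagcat
Counted from 1 at the first coding base, with the *rpn501* base first, the differences are T978C and T1131C, each at the third base of its codon.

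How the authors' counting shared reads between these copies is not stated, and the value of each copy is uncertain. The *rpn501* gene was given 26.6, 29.2, and 41.5 CPM in WT, against 33.5, 28.0, and 33.5 CPM in the mutant. The *rpn502* gene was given 31.4, 36.7, and 48.4 CPM in WT, against 39.1, 31.6, and 47.4 CPM in the mutant. WT replicate 3 was the highest library of both genes, and the genotypes overlapped. The log2 fold changes of −0.04 (SE 0.165) and 0.02 (SE 0.180) did not pass (adjusted p = 0.864 and 0.956 in edgeR).

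Of the 4 regulatory genes not yet described, *rpn3* and *rpn7* of the lid had log2 fold changes of 0.39 and 0.36 (adjusted p = 0.102 and 0.0551 in edgeR), *rpn8* had 0.11, and *rpn6* had −0.22. All of these overlapped between genotypes. Without WT replicate 3, *rpn3*, *rpn7*, *rpn11*, and *rpt3* also passed as higher.

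The 10 assembly and regulator genes held the largest changes of the set, in *fub2* and *cut8*. The *nas2* chaperone gene was lower, and the 7 others did not pass. The median log2 fold change was 0.04. Without WT replicate 3, 2 were higher and 2 were lower, *nas6* joining *nas2*, and the median was 0.01. With the offset for transcript length, 4 were higher and 1 was lower, and the median was 0.13. Of all genes, 26.4% were higher and 27.7% lower without WT replicate 3, and 19.3% and 19.2% with the offset.

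The *fub2* gene encodes a PI31-like protein, a family that binds the core particle (SPBP4G3.03, chromosome II from 4453078 to 4454161, plus strand). It was a scarce transcript, with 2.28, 2.44, and 1.61 CPM in WT, against 4.98, 4.72, and 5.32 CPM in the mutant. Every mutant library had more than any WT library. The difference in log2 was 1.28 (adjusted p = 0.00163 in edgeR, SE 0.226), and *fub2* was the only proteasome gene past the 2-fold threshold. Its WT libraries held 30, 34, and 39 counts. The gene SPNCRNA.1695 overlaps *fub2* on the opposite strand. The related *fub1* gene, whose protein shares 25.3% of residues with Fub2, was more abundant and overlapped between genotypes, with 17.5, 18.95, and 16.5 CPM in WT, against 17.4, 18.8, and 17.2 CPM in the mutant (log2 fold change 0.01, adjusted p = 0.946 in edgeR, SE 0.121).

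Cut8 anchors the proteasome at the nuclear envelope and is needed for chromosome segregation. Its gene (SPAC17C9.13c, chromosome I from 4477478 to 4479000, plus strand) had 16.7, 16.2, and 23.1 CPM in WT, against 34.4, 29.9, and 39.0 CPM in the mutant. The mutant libraries were all above WT replicate 3, the highest of WT. The rise of 0.87 on the log2 scale (adjusted p = 0.00198 in edgeR, SE 0.160) stayed below 2-fold. Without WT replicate 3 it was 1.06, past 2-fold. The protein-coding gene *scs22* overlaps *cut8* on the opposite strand.

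Assembly of the ATPase ring is guided by chaperones, among them Nas2 and Nas6 (gankyrin), and maturation of the core by Ump1. The *nas2* gene (SPAC2H10.02c, chromosome I from 5276066 to 5276957, minus strand) had 47.3, 49.2, and 38.8 CPM in WT, against 31.4, 37.3, and 30.5 CPM in the mutant. The mutant libraries were below WT by a small margin at WT replicate 3 and mutant replicate 2. Its log2 fold change was −0.45 (adjusted p = 0.0201 in edgeR, SE 0.128), and with the offset for transcript length it was −0.17 (adjusted p = 0.139 in edgeR). It passed in 3 of the 6 fits that left out a library. The *nas6* gene did not pass (log2 fold change −0.30, adjusted p = 0.130 in edgeR, SE 0.146) unless WT replicate 3 was left out (−0.41, adjusted p = 0.00801 in edgeR), and neither did *ump1* (0.12, adjusted p = 0.418, SE 0.113). The other genes not past the test were *rpn15* (0.11), SPCC18.17c (0.05), SPCC24B10.16c (0.03), *fub1*, and *ecm29* (−0.29), a scarce transcript with 2.63 to 4.42 CPM. With the offset for transcript length, *rpn15* and *ump1* were higher (0.38 and 0.36, adjusted p = 0.00749 and 0.0160 in edgeR) and *ecm29*, whose coding sequence of 5040 bases is the longest of the set, was lower (−0.73, adjusted p = 0.0236).

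**Figure D3:**
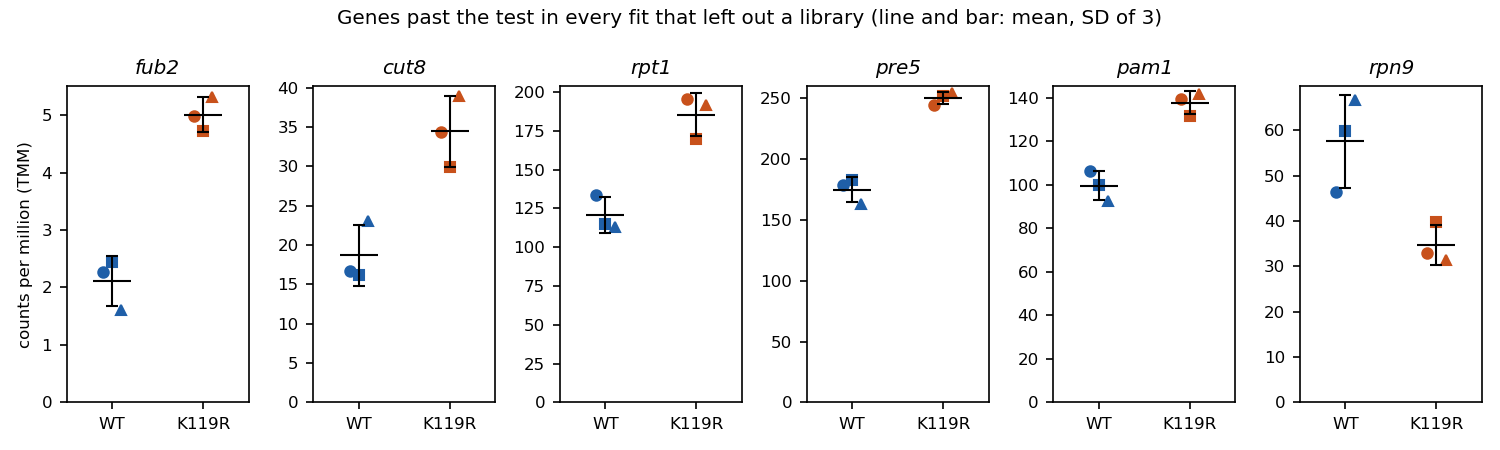
CPM (y axis from 0) of the 6 proteasome genes that passed the test in the fit of all libraries and in each of the 6 fits that left out a library. Points are libraries, circles, squares, and triangles are replicates 1, 2, and 3, and lines with bars are the mean and SD of 3; *rpn9* is lower and the other 5 genes are higher in *htb1-K119R*, with no overlap.

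Of the 14 genes past the test, 6 also passed in each of the 6 fits that left out a library: *fub2*, *cut8*, *rpt1*, *pre5*, and *pam1* as higher and *rpn9* as lower. These come 2 each from the core, the regulatory particle, and the assembly and regulator genes. The matching share over all genes tested is not given here, so how these genes compare with others in this respect was not tested. Without *htb1-K119R* replicate 3, 6 genes were higher, and without WT replicate 3, 15 were higher, when 11.8% and 26.4% of all genes were higher. With library totals in place of TMM, which moved the median of all genes to 0.15, none of the 3 lower genes passed. In that fit *rpn9* was at −0.60 (adjusted p = 0.102), *nas2* at −0.27 (adjusted p = 0.216), and *rpn12* at −0.11 (adjusted p = 0.631 in edgeR), and *rpn2* and *mts4* also lost the call.

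The core and regulatory particles were compared within each library, where a constant scaling of the library cancels. A shift that follows transcript length does not cancel, and no ratio was corrected for it. Median transcript length was 1155 bases for core and 1486 for regulatory genes. With the offset for length, the median log2 fold change moved from 0.14 to 0.33 in the core and from 0.09 to 0.12 in the regulatory particle. The ratio of summed FPKM (14 core genes over 20 regulatory genes) was 1.89, 1.94, and 1.57 in WT, against 1.73, 1.97, and 1.78 in the mutant. WT replicate 3 gave the lowest ratio, and the genotypes overlapped. The means were 1.80 ± 0.204 and 1.82 ± 0.126, a difference of 0.0237 that is smaller than the spread. Its sign rested on single libraries, since it was −0.0932 without WT replicate 3 and −0.0472 without mutant replicate 2. The ratio of the median core gene to the median regulatory gene was 3.60, 3.55, and 2.61 in WT, against 3.71, 4.53, and 4.20 in the mutant. By this measure all mutant libraries were above WT (3.25 ± 0.557 against 4.14 ± 0.411). The difference of 0.890 was 0.569 without WT replicate 3. Here the median core gene was at 156 ± 12.1 FPKM in *htb1-K119R* and 109 ± 20.6 FPKM in WT, while the median regulatory gene was at 38.2 ± 6.43 and 35.0 ± 13.4 FPKM. The middle core genes by mean FPKM were not the same in each genotype. They were *pup2* (105.7) and *pre3* (106.9) in WT, against *pre10* (154.7) and *pre3* (161.5) in the mutant, and *pre3* and *pre10* passed the test as higher. Values in FPKM also held a shift over all genes, with a median log2 fold change of 0.15 in limma on log2(FPKM + 1). In TMM-scaled CPM, the core genes summed to 2113, 2106, and 1884 in WT, against 2292, 2377, and 2384 in the mutant. The regulatory genes summed to 1475, 1451, and 1627 in WT, against 1823, 1641, and 1824 in the mutant. Each CPM sum was higher in every mutant library, although for the regulatory genes mutant replicate 2 was barely above WT replicate 3. In FPKM the regulatory sums overlapped, at 767.5, 783.5, and 1168 in WT, against 1238, 1012, and 1169 in the mutant. The core sums in FPKM did not overlap (1454, 1521, and 1830 in WT, against 2137, 1988, and 2082 in the mutant). No p is given for these sums, since the genes were chosen with results known.

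**Figure D4:**
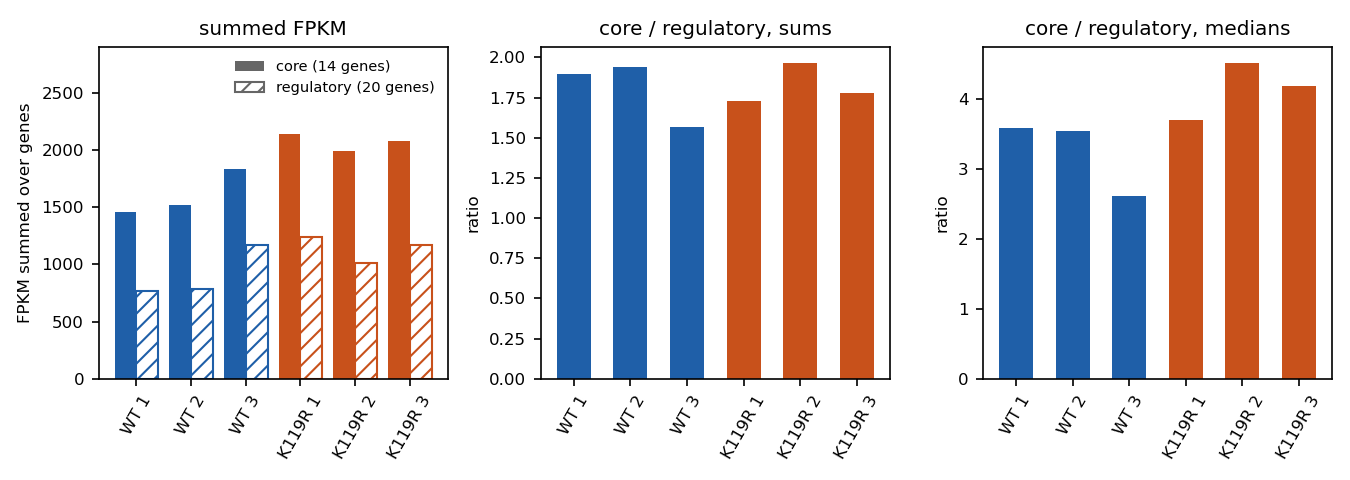
Core and regulatory genes in each library. Left, FPKM summed over the 14 core (filled) and 20 regulatory (hatched) genes; middle, the ratio of these sums; right, the ratio of the median core to the median regulatory gene. The ratio of sums overlaps between WT (blue, 1.57 to 1.94) and *htb1-K119R* (orange, 1.73 to 1.97), whereas the ratio of medians is higher in each mutant library. Neither ratio is corrected for the shift with transcript length.

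The promoters of the 44 genes were read from RefSeq (ASM294v3), from 250 bases before to 50 after the annotated gene start, and compared with those of 5104 genes. The proteasome-associated control element of budding yeast (GGTGGCAAA, either strand), which Rpn4 binds there, was in 0 of the 44 windows and in 0.098% of all windows. The HomolD box (CAGTCACA, either strand), an element of ribosomal protein promoters in fission yeast, was in 1 of the 44 windows, that of *pre10*, and in 2.68% of all windows. The 8-mer AATATAAA, picked from these promoters as the most enriched, was in 12 of the 44 windows (27.3%) and in 9.37% of all windows. Of these 12 genes, 1 (*pre3*) passed the test, as higher. Of the 44 genes, 25.0% were higher and 6.82% lower, against 18.6% and 19.3% of all genes tested. Among core genes, the 8-mer was in the windows of *pre3*, *pre4*, *pre6*, and *pup2*. The genotypes overlapped in *pre6* and *pup2* (log2 fold change 0.09 and −0.05), and their windows are not shown. The windows of the HomolD match in *pre10* and of the 8-mer in *pre3* and *pre4* are shown, since these core genes had all mutant libraries above WT. The matches are in capitals.
pre10, reverse complement of HomolD, chrIII:990632-990661, plus strand: tatataacgagTGTGACTGttctacgctcc
pre3, reverse complement of the 8-mer, chrII:3117543-3117572, plus strand: aataacaatttTTTATATTcatactgcaat
pre4, the 8-mer, chrII:769512-769541, plus strand: ctagaatagcaAATATAAAacttttgaaag
A match is only these letters in the window, and 43 of the 44 genes had no match to either named element.

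The genes that mark proteins for the proteasome were mostly taken by description. Ubiquitin genes were found by symbol or description, and Cdc48 and shuttle factors by a fixed list of symbols. The counts in each list stand beside 18.6% higher and 19.3% lower over all genes tested. These lists were not counted with the offset for transcript length, and whether their counts follow the shift with length was not tested. Of the 5 ubiquitin genes, 0 passed in edgeR, and 0 also at an unadjusted p below 0.05, whereas 1 was higher by DESeq2 (*ubi4*, the polyubiquitin gene, at 605, 658, and 646 CPM in WT, against 755, 782, and 779 CPM in the mutant). Their log2 fold changes in edgeR lay from −0.38 to 0.28. All but *ubi4* are described as fusions of ubiquitin with a ribosomal protein, and only *ubi4* had a positive value. Of 12 ubiquitin-conjugating enzymes, 2 rose and 3 fell (16.7% and 25.0%). The largest rise was that of *ubc15*, from 17.1, 16.9, and 18.4 CPM to 28.3, 23.7, and 27.9 CPM (log2 fold change 0.61, adjusted p = 0.00323 in edgeR, SE 0.121). The largest fall was that of *ubc14*, from 62.4, 68.5, and 61.2 CPM to 35.6, 35.4, and 33.2 CPM (−0.88, adjusted p = 9.87e-05 in edgeR, SE 0.0998). Neither gene overlapped between genotypes.

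Of 57 ubiquitin ligases, 17 rose and 4 fell (29.8% and 7.02%, against 18.6% and 19.3% of all genes tested). The largest rise was in *brl2*, which had 2.20, 2.23, and 1.16 CPM in WT, against 8.93, 10.4, and 8.68 CPM in the mutant (log2 fold change 2.38, adjusted p = 6.77e-05 in edgeR, SE 0.252). Brl2 and Brl1 form the ligase that, with the conjugating enzyme Rhp6, ubiquitinates H2B. The partner *brl1* and *rhp6* were looked up after the value of *brl2* was seen. The *brl1* gene rose (1.18, adjusted p = 0.000679 in edgeR, SE 0.182), with 9.11, 7.39, and 7.19 CPM in WT, against 14.2, 21.7, and 17.6 CPM in the mutant. The *rhp6* gene fell (−0.47, adjusted p = 0.00440 in edgeR, SE 0.0981), with 74.2, 66.5, and 69.6 CPM in WT, against 50.3, 48.4, and 53.6 CPM in the mutant. Each of these genes was separate between genotypes. The largest fall among the ligases was SPAPB17E12.03 (log2 fold change −0.73, adjusted p = 0.0180 in edgeR, SE 0.204).

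Of 19 deubiquitinases, 4 rose and 1 fell (21.1% and 5.26%, against 18.6% and 19.3% of all genes tested). The fall was in *uch1* (−0.56, adjusted p = 0.00480 in edgeR, SE 0.1195), and *otu2* rose most (1.65, adjusted p = 0.000816 in edgeR, SE 0.261). Of these enzymes, Ubp6 and Uch2 work on the proteasome itself, and their genes were singled out after their values were seen. The *ubp6* gene rose from 27.6, 26.4, and 32.5 CPM in WT to 45.9, 41.6, and 48.3 CPM in the mutant (log2 fold change 0.65, adjusted p = 0.00191 in edgeR, SE 0.117), with no overlap. The *uch2* gene had 31.0, 34.6, and 38.0 CPM in WT, against 26.5, 29.3, and 30.1 CPM in the mutant. All mutant libraries were below WT, but the gene did not pass (log2 fold change −0.27, adjusted p = 0.0844 in edgeR, SE 0.116). The deubiquitinase gene of the proteasome lid, *rpn11*, overlapped between genotypes, as given above.

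The 11 genes for Cdc48, its cofactors and shuttle factors, which bring substrates to the proteasome, were taken by symbol. Of these, 5 rose and 1 fell (45.5% and 9.09%). The rise was largest in *vms1* (2.51, adjusted p = 4.47e-05 in edgeR, SE 0.249), a transcript of 0.835 to 1.45 CPM in WT, against 6.10 to 7.70 CPM in the mutant. The fall was in *ubx2* (−0.60, adjusted p = 0.00147 in edgeR, SE 0.104). The anaphase-promoting complex, a ligase whose targets the proteasome destroys in mitosis, had 1 of 12 tested genes higher and 1 lower (8.33% each). These were *cut4* (1.78, adjusted p = 6.72e-06 in edgeR, SE 0.131) and *cut9* (−0.66, adjusted p = 0.0251 in edgeR, SE 0.199). The medians of the lists lay between −0.22 for the ubiquitin genes and 0.31 for the deubiquitinases.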

How the data were processed

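RNA of 3 WT and 3 *htb1-K119R* samples was enriched for mRNA and sequenced. The authors removed rRNA reads and mapped the rest to Ensembl release 45 with HISAT2. The table deposited holds the authors' unnormalized whole-number count of each gene in each library, and the authors' FPKM from StringTie. The counter and the strand setting are not given in the sources used here. The deposited fold change and p-value columns of the authors' comparison and 12 further per-sample columns were not used.

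Genes were tested with edgeR 4.0.16 (R 4.3.3), TMM, filterByExpr, and the quasi-likelihood test with genotype as the only factor, with Benjamini-Hochberg adjustment over all genes. Calls needed an adjusted p under 0.05 with a change above 2-fold. SEs derive from the F statistic. FPKM, per length, served for levels between genes. Positions come from ASM294v3 by gene ID (5109 of 5184 IDs, all 44 members), without coordinates in the table to compare, and copies were searched with BLAST 2.17.0.

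Members and lists were chosen with earlier results of these data known. The genes named in full were, in each class, up to 4 rises and 4 falls past the test, the catalytic subunits, near-identical copies, genes past 2-fold, genes alone in a small count, and the extremes of each pathway list.

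Alternatives were DESeq2 1.42.0, RLE, library totals, other filters (none, or 10 counts in every library), limma 3.58.1 on log2(FPKM + 1) and log2(FPKM + 0.1) at a mean FPKM of at least 1 or unfiltered, a replicate block, and leaving out each library. Added after the data were seen were a loess offset for transcript length, *rpn15* moved between classes, and the ratio of the particles with each library left out. The methods were tested on simulated data.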

Additional observations from a re-analysis of the deposited data

How the results depend on the processing

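The composition normalization decides how far the genes shift as a group. With library totals in place of TMM, the median log2 fold change of all genes moved from −0.01 to 0.15, and in the limma fits on FPKM it was 0.15, 0.17, and 0.15 (log2(FPKM + 1), log2(FPKM + 0.1), and unfiltered). In these fits no proteasome gene was lower (0, 0, 0, and 0 against 3), and 2 were called higher in each, with *cut8* beside *fub2*. Over all genes, 108 were called lower with library totals and 66, 105, and 66 in the limma fits, against 181. The core median was 0.30 with library totals and 0.31, 0.32, and 0.31 in the limma fits, and that of the assembly genes was 0.19, 0.22, 0.23, and 0.21. The regulatory median was 0.24 with library totals and 0.28, 0.28, and 0.28 in the limma fits. The offset for transcript length gave a core median of 0.33.

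Leaving out 1 library at a time, 6 to 15 proteasome genes were higher and 1 to 5 lower, and 1 to 2 were called higher. The genotype difference in the ratio of medians was 0.890, against 0.0237 for the ratio of sums. With each library left out in turn, these lay between 0.569 and 1.11 and between −0.0932 and 0.0938, the lowest of each without WT replicate 3. Same-numbered libraries deviated with correlations of −0.26, 0.42, and 0.29, and WT replicates 1 and 3 correlated better with another number (0.38 and 0.37). Deviations from a mean of 3 libraries are not independent, so these values cannot tell whether the numbers pair the libraries. With the number as a replicate block, 13 proteasome genes were higher and 4 lower, with *rpn3* and *rpn7* added as higher, *rpn10* and *nas6* added as lower, and *rpn12* lost (adjusted p = 0.0515, edgeR). The block gave 241 and 176 calls over all genes. For the 17 genes named by rule, 223 of 272 values kept their side of the threshold, 48 lost the call, and 1 (*pts1*) gained it. The sign changed in 10 values that were not past the test in either fit, 7 of *rpn501* and 3 of *rpn502*, and in no value past it. For a gene of low count such as *fub2*, counting error and the 3 libraries limit precision.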
